A study of Mus musculus with 12 samples.

Results

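Granins and the enzymes that process prohormones were followed through RNA-seq libraries of the mouse cochlea. The 9 genes are *Scg2*, *Scg3*, *Scg5*, *Chga*, *Chgb*, *Vgf*, *Pcsk1*, *Pcsk2* and *Cpe*, out of 37432 genes in the deposited table. They were chosen by their family, with *Scg2* as the starting point, and *Scg2* itself was selected on its higher level in the homozygous apical turn of these same libraries. For that reason all values of the apical genotype comparison are given as a description, with no test. The study set males homozygous for *Gjb2* 35delG (*Gjb2* 35delG/35delG) against wild-type males, both at P14, with each cochlea cut into an apical, a middle and a basal turn, with 2 repeats of each, which gives 12 libraries in 6 groups. Homozygous males had a background of nearly C57BL/6J and grew from homozygous 35delG embryonic stem cells in tetraploid embryos, were delivered by cesarean section and were nursed by ICR females. Age-matched wild-type males came from a vendor, and their strain is not named in the methods. Genotype and origin of the animals therefore cannot be told apart, no treatment is named for any group, and the number of mice or stem cell lines behind a library is not given. P-values measure the spread between these libraries.

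Granins are acidic proteins that are packed at high concentration into the dense-core vesicles of neurons and endocrine cells, from which peptides are released on demand. Chromogranins A and B (*Chga*, *Chgb*), secretogranins II and III (*Scg2*, *Scg3*) and VGF make up the cargo, and several of them are cut into active peptides such as secretoneurin from *Scg2*. Cleavage is carried out by the prohormone convertases encoded by *Pcsk1* and *Pcsk2*, *Scg5* encodes the chaperone that the second of these needs to mature, and carboxypeptidase E (*Cpe*) trims the basic residues left at the cut ends. In the cochlea, the cell bodies of the spiral ganglion neurons lie in the bony core, and their fibres reach the hair cells.

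Values are FPKM, a fragment count corrected for transcript length and library size, as deposited by the authors and here divided by 1 scale factor per library (0.917 to 1.06). The sequencing depth behind a value is unknown. *Gjb2* lay between 58.6 and 450.6 scaled FPKM in all 12 libraries, and FPKM do not show which allele the fragments carry, so its level does not check the genotype labels. With wild-type libraries first, it had 247.8 and 253.6 against 331.5 and 376.2 in the apical turn. Middle values were 139.7 and 268.2 against 255.8 and 450.6, and basal values 434.5 and 255.6 against 126.4 and 58.6. The paper reported reduced *Gjb2* RNA by qPCR in the homozygous cochlea at P14. Libraries of the same group were not alike in the levels of cell type markers. The summed level of 20 neuron markers was 94.4 in the first and 1207 in the second wild-type basal library, and it was 4674 and 4975 in the homozygous basal libraries. *Mobp*, a myelin gene of oligodendrocytes in the central nervous system, was at 175.1 in the second wild-type basal, 639.7 in the first wild-type middle, 192.4 in the first and 266.4 in the second homozygous basal library. It was at most 7.73 in the other 8 libraries.

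Of the 9 genes, 7 have an entry in the RefSeq promoter table of GRCm38.p6, which covers 250 bases before and 50 bases after a start site, and *Vgf* and *Cpe* have none. The windows were searched for the cAMP response element TGACGTCA, the classical binding site of CREB, which reads the same on both strands. It was found in 3 of the 7, in *Scg2*, *Chgb* and *Pcsk1*, against 588 of 32851 promoters (1.79%) in the whole table. Its first 5 letters, TGACG, are contained in the full element and were searched on both strands as well. They were found in all 7 windows, against 20.8% of all promoters. The 3 stretches of 30 bases are shown because these genes share the element while their levels across the libraries differ. The element is in capitals, and the sequences are given 5′ to 3′ on the strand of the gene.
*Scg2* (chr1:79440076-79440105, minus strand): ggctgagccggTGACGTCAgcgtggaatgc
*Chgb* (chr2:132781559-132781588, plus strand): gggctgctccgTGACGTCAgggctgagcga
*Pcsk1* (chr13:75089768-75089797, plus strand): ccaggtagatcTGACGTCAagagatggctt
The element began 68, 72 and 78 bases before the RefSeq start site of *Scg2*, *Chgb* and *Pcsk1*. In the GENCODE annotation, the first exons of *Scg2* and *Chgb* begin further upstream, so that both of these stretches lie in an exon annotated as untranslated, whereas that of *Pcsk1* lies in no exon of the gene. A match of letters is not evidence of binding.

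*Scg2* (ENSMUSG00000050711.7) encodes secretogranin II (GRCm38, chromosome 1, minus strand, 79434669 to 79440120, 3 exons). Its level was 0.587 and 0.839 scaled FPKM in the wild-type apical turn, against 119 and 35.15 in the homozygous apical turn, the difference on which it was chosen. Both homozygous libraries were far above both wild-type ones, and they differed from each other several-fold. The ratio of the group means was 108, with a mean of 0.713 ± 0.178 (SD, n = 2) in wild-type and 77.1 ± 59.3 (SD, n = 2) in homozygous libraries. The 8 libraries of the other turns, which played no part in the choice, all lay between 0.610 and 4.07. The middle turn had 0.830 and 0.610 in wild-type, against 2.76 and 1.67 in homozygotes, so that the genotypes did not overlap. This difference did not pass the test (log2 fold change 0.88, standard error 0.51, adjusted p = 0.318 from limma). The fit shares its estimate of the spread over all groups. The standard errors of *Scg2* therefore include the gap within the homozygous apical pair on which it was chosen. With only the middle libraries in the fit, the standard error was 0.256 (adjusted p = 0.144 from limma). The basal turn had 4.07 and 1.62 in wild-type, against 2.57 and 3.15 in homozygotes, with the wild-type pair on either side of the homozygous pair (log2 fold change 0.08, standard error 0.51, adjusted p = 0.938). Leaving out the second wild-type basal library turned this value to −0.40, and leaving out the second homozygous one turned it to −0.03. At about 1 FPKM in wild-type libraries, fold changes on the log2(scaled FPKM + 1) scale understate the ratio.

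**Figure D1:**
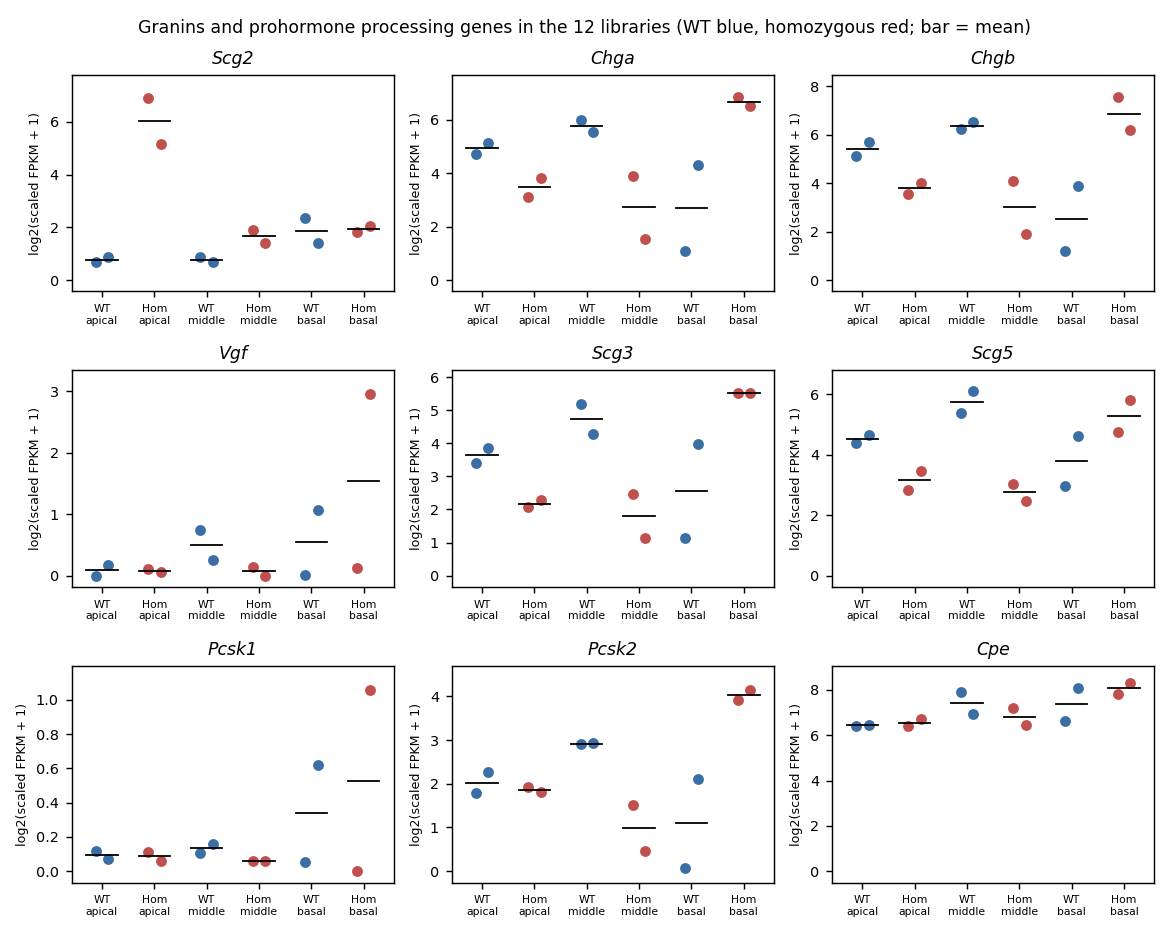
Level of each of the 9 genes in the 12 libraries, as log2(scaled FPKM + 1) on axes that differ between genes, with wild-type (WT) libraries in blue, homozygous libraries in red and the group mean as a bar. Scg2 stands out in the homozygous apical turn (119 and 35.15 scaled FPKM), whereas Chga, Chgb, Scg3, Scg5 and Pcsk2 are low in the homozygous middle turn and high in the homozygous basal turn.

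The 5 genes whose level followed *Scg2* most closely over the 12 libraries were *Ecel1*, *Tecta*, *Dhodh*, *Clpb* and *Aqp5*, among 9464 candidates whose mean reached 5 scaled FPKM. Their Pearson correlations with *Scg2* were 0.855, 0.827, 0.826, 0.814 and 0.794, given as a description, since the 12 libraries come from 6 groups and 2 of the libraries hold most of the range. These 2 are the homozygous apical libraries on which *Scg2* was chosen, so genes high there were favoured by that choice. *Ecel1*, *Tecta* and *Aqp5* reached the mean of 5 only through these 2 libraries. *Ecel1* encodes a membrane endopeptidase of the neprilysin family and had 55.1 and 32.6 scaled FPKM in the homozygous apical turn, against 1.63 and 1.81 in the wild-type apical turn. *Tecta* encodes alpha-tectorin of the tectorial membrane and had 81.3 and 47.8 against 0.785 and 0.678. *Aqp5*, a water channel gene, had 29.8 and 19.3 against 1.63 and 1.16. For *Tecta* the homozygous middle libraries came next, with 6.78 and 11.9, whereas for *Ecel1* (4.24 and 10.5) and *Aqp5* (3.23 and 5.92) a basal library lay between them. *Dhodh* and *Clpb* encode mitochondrial proteins and moved over a narrow range, from 4.07 to 8.27 and from 5.26 to 7.19 scaled FPKM. Of the other 8 granin and processing genes, *Vgf* and *Pcsk1* were below that mean and could not be among these 5, and the rest were not.

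**Figure D2:**
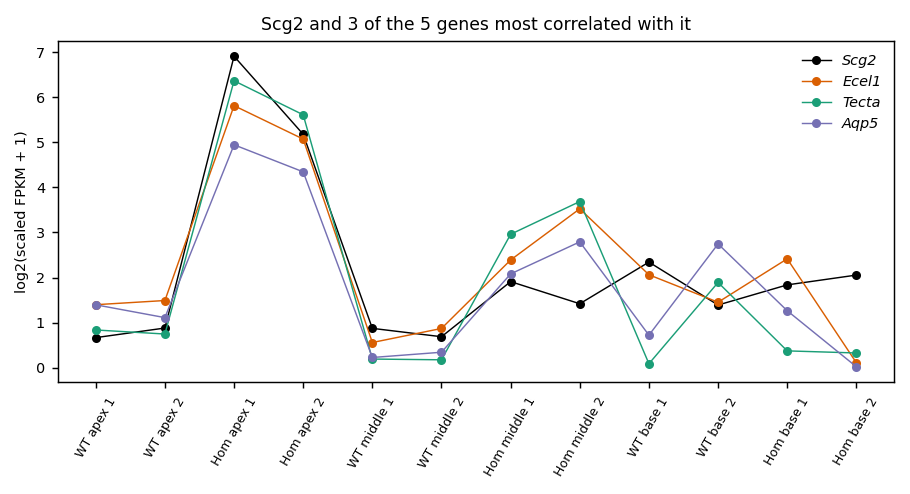
Level of Scg2, Ecel1, Tecta and Aqp5 in each of the 12 libraries as log2(scaled FPKM + 1), with lines that only join the points of 1 gene. All 4 genes have their highest values in the 2 homozygous apical libraries, from 19.3 scaled FPKM for Aqp5 to 119 for Scg2. Scg2 was chosen on these libraries and the other genes by their correlation with it, so the shared peak follows from the choice.

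Chromogranins A and B, the most abundant granins here, ran in parallel from library to library and unlike *Scg2*. *Chga* (ENSMUSG00000021194.6, chromosome 12, plus strand, 102554969 to 102565028, 8 exons) had 63.0 and 46.0 scaled FPKM in the wild-type middle turn, against 14.03 and 1.90 in homozygotes. The order was the other way in the basal turn, where wild-type libraries had 1.14 and 18.5 and homozygous ones 112.8 and 88.9. Genotypes did not overlap in either turn. *Chgb* (ENSMUSG00000027350.8, chromosome 2, plus strand, 132781278 to 132795079, 5 exons) had 73.9 and 92.0 against 16.2 and 2.74 in the middle turn, wild-type first. Basal wild-type libraries had 1.28 and 13.9, against 185.7 and 73.3 in homozygotes. The spread within a pair was large for both genes, with a more than 10-fold gap between the wild-type basal libraries. In the apical turn *Chga* had 25.1 and 34.2 against 7.66 and 13.1, and *Chgb* had 34.3 and 51.5 against 10.9 and 15.2, so both lay lower in the turn in which *Scg2* lay higher.

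*Scg3*, whose product sorts chromogranin A into forming vesicles, is ENSMUSG00000032181.7 (chromosome 9, minus strand, 75643189 to 75684056, 12 exons). With wild-type libraries first, it had 35.4 and 18.3 against 4.51 and 1.22 scaled FPKM in the middle turn and 1.21 and 14.9 against 44.8 and 45.4 in the basal turn. Apical values were 9.65 and 13.65 against 3.18 and 3.91. The homozygous basal pair was the closest of these pairs, with a mean of 45.1 ± 0.433 (SD, n = 2). *Scg5*, the chaperone gene (ENSMUSG00000023236.7, chromosome 2, minus strand, 113776362 to 113829121, 6 exons), had 40.5 and 68.1 against 7.17 and 4.59 in the middle turn. Its basal values were 6.85 and 23.7 against 26.0 and 54.6, so that the genotypes came close without overlap. In the apical turn it had 19.8 and 24.1 against 6.07 and 10.1. *Pcsk2*, the convertase gene served by that chaperone (ENSMUSG00000027419.9, chromosome 2, plus strand, 143546156 to 143816285, 12 exons), had 6.47 and 6.68 against 1.83 and 0.371 in the middle turn. Its basal values were 0.0543 and 3.34 against 14.1 and 16.8, again without overlap. In the apical turn its genotypes overlapped, with 2.46 and 3.79 against 2.79 and 2.49. Exons of *Pcsk2* overlap those of the antisense genes *Pcsk2os1* and *Pcsk2os2*, and whether the counting used strand is not given in the sources used here, so fragments of these genes cannot be told apart from its own.

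*Vgf*, *Pcsk1* and *Cpe* behaved differently from these 5 genes. *Vgf*, a granin gene known for its induction by nerve growth factor (ENSMUSG00000037428.14, chromosome 5, plus strand, 137026392 to 137033351, 5 exons), was at most 0.677 scaled FPKM in 10 of the 12 libraries and listed at 0 in 2 of them. The exceptions were the second wild-type basal library with 1.11 and the second homozygous basal library with 6.74. *Pcsk1* (ENSMUSG00000021587.5, chromosome 13, plus strand, 75089826 to 75134861, 14 exons) was highest in the same libraries, with 0.539 and 1.082, and at most 0.115 elsewhere. It did not reach 1 FPKM in 2 libraries and was not tested. Both libraries are among the 4 with high *Mobp*, and *Penk*, the enkephalin precursor gene, was highest in them too, with 40.2 and 36.0. In contrast, the first homozygous basal library had 0.0859 for *Vgf*, 0 for *Pcsk1* and 5.95 for *Penk*. The first wild-type middle library, which had the highest *Mobp*, had 0.677, 0.0776 and 6.65 for these genes. The part of central nervous tissue in these values was not tested. *Cpe* (ENSMUSG00000037852.8, chromosome 8, minus strand, 64592542 to 64693054, 9 exons) was the most abundant of the 9 genes on this length-corrected scale, with a mean of 155.2 scaled FPKM over all libraries. It varied least, from 82.8 to 316, and its wild-type and homozygous libraries overlapped in every turn. The apical turn had 84.1 and 86.9 against 82.8 and 104.0, the middle turn 237.5 and 121.7 against 144.9 and 86.2, and the basal turn 97.4 and 274.4 against 226.0 and 316.1. Without the first wild-type basal library, its basal log2 fold change turned from 0.71 to −0.04.

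Genotypes were compared in each turn with limma on log2(scaled FPKM + 1), and calls needed a fold change over 2 with an adjusted p, over the 16215 genes tested, under 0.01. Of the 9 genes, 8 passed the filter of at least 1 FPKM in 2 libraries. None of the 8 was called in the middle turn, where 0.179% of all genes were, and none in the basal turn, where 4.29% were. At an unadjusted p under 0.05, 5 of the 8 were lower in the middle turn (25.4% of all genes were below this p in either direction) and 5 were higher in the basal turn (32.4% of all genes). In the middle turn the log2 fold changes of *Chga*, *Chgb*, *Scg3*, *Scg5* and *Pcsk2* were −3.05, −3.38, −2.92, −2.99 and −1.94, with adjusted p-values from 0.0350 for *Scg5* to 0.101 for *Chga*. Their basal values were 3.97, 4.34, 2.96, 1.48 and 2.94, with adjusted p-values from 0.0120 for *Pcsk2* to 0.101 for *Scg5*. Without the first wild-type basal library, which had the lowest neuron markers, the basal values were 2.37 for *Chga*, 2.99 for *Chgb*, 1.54 for *Scg3*, 0.65 for *Scg5* and 1.92 for *Pcsk2*. None of them was called in that fit, where 0.210% of all genes were called higher. Without the second wild-type basal library they were 5.56, 5.69, 4.38, 2.30 and 3.96, and 4 of the 8 genes were called higher, while the share of all genes called higher went from 2.53% to 5.99%. The middle value of *Chga* was −1.87 without the second homozygous middle library. The median log2 fold change of the 8 genes was −2.43 in the middle turn and, in the basal one, 2.21, beside medians of 0.04 and −0.02 over all genes tested. In the apical turn, which is a description, their median was −0.77 beside −0.03, with *Scg2* at 5.27 and *Chgb* at −1.63 as the extremes.

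**Figure D3:**
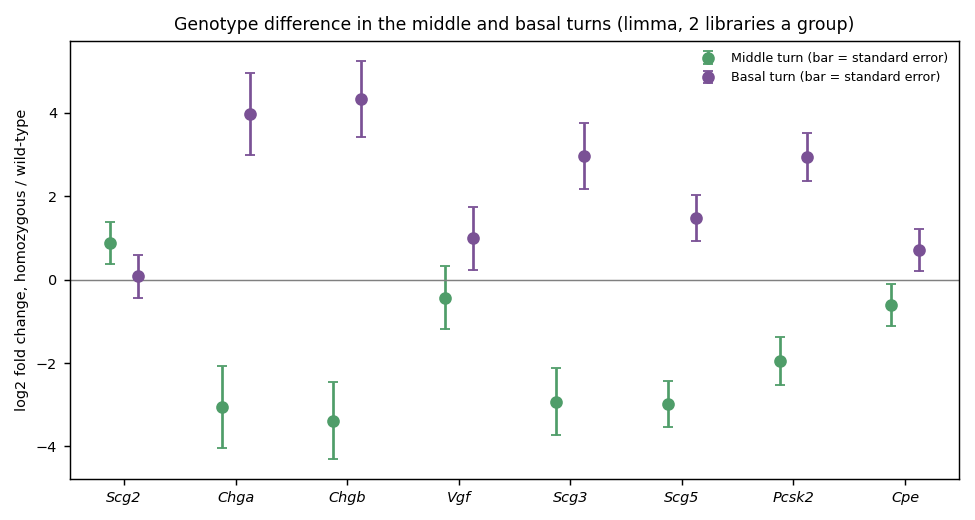
log2 fold change between homozygous and wild-type libraries in the middle (green) and basal (purple) turns for the 8 genes tested, on log2(scaled FPKM + 1), with the standard error from limma as the bar. Chga, Chgb, Scg3, Scg5 and Pcsk2 lie below 0 in the middle turn and above 0 in the basal one, while Scg2, Vgf and Cpe lie within 1 of 0 in both.

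Whether the genotype difference was the same in the basal and middle turns was tested directly. For 5 of the 8 genes the difference was called, each time higher in the basal turn, beside 6.33% of all genes called in this direction. The basal minus middle values were 7.72 for *Chgb* (standard error 1.30, adjusted p = 0.00492), 7.02 for *Chga* (1.39, adjusted p = 0.00898), 5.88 for *Scg3* (1.13, adjusted p = 0.00782), 4.88 for *Pcsk2* (0.82, adjusted p = 0.00491) and 4.46 for *Scg5* (0.78, adjusted p = 0.00567). The values were −0.80 (standard error 0.72, adjusted p = 0.446) for *Scg2*, 1.31 (0.71, adjusted p = 0.209) for *Cpe* and 1.42 (1.07, adjusted p = 0.361) for *Vgf*, which leaves room for a difference in these genes too. The same 5 genes were lower without overlap in the homozygous middle turn and higher without overlap in the homozygous basal turn, a pattern that 14.9% of all genes tested showed. The summed neuron markers took the same order. Genotype therefore cannot be told apart here from where the pieces were cut or what tissue they held. Single counts were 6 of 8 genes lower without overlap in the middle turn (28.2% of all genes) and 5 of 8 higher without overlap in the basal turn (26.2%), and 4 of 8 lower in the apical turn (32.1%), from which nothing is read.

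These 5 calls lie close to the threshold. Over 19 other fits, made with other settings or without 1 library, their adjusted p-values reached at most 0.0370, and each of the 5 was called in 5 to 8 of the fits. Leaving out 1 library lost some or all of these calls, except without the second wild-type basal library. The number of all genes called fell in the same fits, so the loss is not particular to these genes. The differences themselves lay between 6.37 and 9.07 for *Chgb* and between 5.43 and 8.62 for *Chga*. They lay between 4.46 and 7.31 for *Scg3*, 3.86 and 5.90 for *Pcsk2*, and 3.64 and 5.29 for *Scg5*. Without the first wild-type basal library, the difference of *Chga* was 5.43. Without any 1 of the apical libraries it stayed at 7.02, and only its standard error rose, from 1.39 to 1.47.

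The turns were also compared within each genotype. Between the basal and middle turns of wild-type mice, none of the 8 genes was called, as 0% of all genes were, and at an unadjusted p under 0.05 there were 5 of them, all lower in the basal turn (15.2% of all genes were below this p in either direction). For *Chgb* the basal minus middle value was −3.84 (standard error 0.92, adjusted p = 0.130). Without the first wild-type basal library this was −2.49, and the values of *Chga* and *Scg3* moved from −3.08 to −1.49 and from −2.16 to −0.74. Those of *Scg5* and *Pcsk2* moved from −1.94 to −1.12 and from −1.82 to −0.81. In homozygous mice none was called either, where 4.66% of all genes were, and at an unadjusted p under 0.05 there were 6, all higher in the basal turn (34.6% of all genes in either direction). *Pcsk2* came closest, with 3.05 (standard error 0.58, adjusted p = 0.0103). Leaving out a wild-type basal library did not change these homozygous values, and changed only the spread shared over the groups. With that smaller spread *Chga*, *Chgb*, *Scg3*, *Scg5* and *Pcsk2* were called, and more of all genes were too. Libraries did not overlap for 5 genes lower in the wild-type basal turn (19.7% of all genes) and for 6 higher in the homozygous basal turn (28.1%). By group means, the middle turn was the highest in wild-type and the basal turn in homozygous mice for *Chga*, *Chgb*, *Scg3*, *Scg5* and *Pcsk2*.

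Markers of spiral ganglion neurons moved with these genes. The 20 markers, all of them tested, summed to 1408 and 1980 scaled FPKM in wild-type against 372 and 689 in homozygous apical libraries, to 2809 and 3483 against 701 and 148 in the middle turn, and to 94.4 and 1207 against 4674 and 4975 in the basal turn. Of the 20, 19 had a negative log2 fold change in the middle turn and 19 had a positive one in the basal turn. *Gata3* was the exception in both, with 0.64 and −2.17. *Calb2* (calretinin) and *Snap25*, a vesicle fusion gene, had the highest means, and *Prph* and *Rbfox3* were each listed at 0 in 1 library. In bulk tissue, fewer neurons and less RNA per neuron cannot be told apart. Per 1000 FPKM of the summed neuron markers, *Chga* lay between 12.1 and 24.1 in all 12 libraries, a 1.997-fold range, whereas its scaled FPKM ranged 98.9-fold. *Scg3* had a 2.44-fold range on this scale against 37.5-fold, and *Chgb* 3.46-fold against 144.7-fold. In the first wild-type basal library, *Gata3* (34.1) and *Calb2* (33.6) made up most of the marker sum of 94.4, so ratios there rest largely on these 2 genes. The other libraries gave 12.9 to 24.1 for *Chga*, 5.26 to 12.6 for *Scg3* and 11.5 to 39.7 for *Chgb*. *Pcsk2* ranged from 0.575 to 7.49, or from 1.75 without the first wild-type basal library. *Scg5* had its highest ratio, 72.6, in that library, and lay between 5.56 and 31.0 in the others. The ratios of *Cpe* spread over 29.5-fold, against 3.82-fold for its scaled FPKM, and those of *Scg2* over 1828-fold against 202.5-fold. *Scg2* had 320 and 51.0 in the homozygous apical turn, 43.1 in the first wild-type basal library, and between 0.175 and 11.3 in the others. The part of neurons in the genotype differences was not tested.

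**Figure D4:**
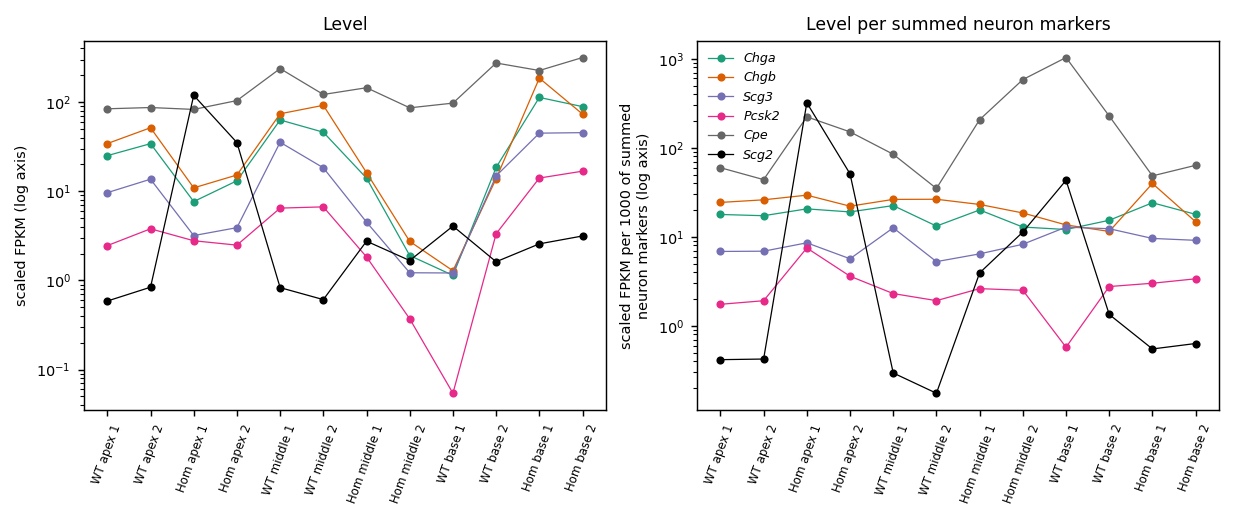
Level of 6 genes in the 12 libraries, as scaled FPKM (left) and per 1000 FPKM of the summed neuron markers (right), both on a log axis, with lines that only join the points of 1 gene. Chga, Chgb and Scg3 span up to 144.7-fold on the left and at most 3.46-fold on the right, while Cpe and Scg2 spread more widely on the right. In the first wild-type basal library, Gata3 and Calb2 made up most of the marker sum.

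Markers of other cells also differed between the libraries. Schwann cell and myelin markers (12 genes) summed to between 890.3 and 20410 scaled FPKM, with both homozygous middle libraries at the lower end and *Mbp* as the most abundant. Markers of central glia (10 genes, led by *Cldn11* and *Mobp*) summed to between 94.7 and 2155. Without *Cldn11*, which made up most of this sum where *Mobp* was low, the other 9 summed to between 504.6 and 1639 in the 4 libraries with high *Mobp* and to between 12.1 and 32.9 in the others. Hair cell markers (14 genes, led by *Ocm* and *Otof*) summed to 620.2 and 617.6 in wild-type against 359.7 and 316.0 in homozygous apical libraries, and to 164.0 and 167.1 against 13.4 and 11.8 in the basal turn. The middle turn went the other way, with 31.1 and 125.4 in wild-type against 241.9 and 430.6 in homozygous libraries. Most of this gap was *Ocm*, with 0.345 and 20.2 against 158.5 and 305.5. *Otof* overlapped between the genotypes there, with 9.42 and 25.2 against 14.2 and 19.3, while 13 of the 14 markers had a positive log2 fold change. Markers of supporting and ridge cells (14 genes, *Tecta* among them) summed to 3294 and 3570 in wild-type against 2387 and 1587 in homozygous apical libraries. Without *Ceacam16* the other 13 summed to 1248 and 1402 against 2260 and 1486, so the lower sum came from that gene. *Ceacam16* and *Epyc*, the highest of them, went opposite ways there, with 2046 and 2168 against 127.2 and 100.8 for *Ceacam16* and 801.9 and 958.2 against 1497 and 987.8 for *Epyc*. Markers of chromaffin cells and sympathetic neurons (7 genes), the best known sources of granins outside the brain and pituitary, summed to at most 6.03 in any library. Nearly all of this was *Th*, while *Dbh* and *Hand2* were listed at 0 throughout. In the homozygous apical turn they summed to 1.07 and 1.62, against 1.98 and 5.84 in the wild-type apical turn.

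The other genes of the pathway were followed with lists compiled by hand. The list of further convertases and trimming enzymes has 16 genes, all tested, and none was called in the middle turn. Basal calls were 2, both lower in homozygotes, beside 1.76% of all genes called lower. These were *Qpct*, the glutaminyl cyclase that modifies the amino end of peptides (log2 fold change −2.88, adjusted p = 0.00746), and *Ctsl*, the gene of a lysosomal protease (−1.19, adjusted p = 0.00932). *Ctsl*, *Pam* and *Mbtps1* were the most abundant, and *Pam*, which amidates peptides, was not called in any comparison. In the basal minus middle difference 1 was called, *Rnpep*, an aminopeptidase gene, with −1.38 (adjusted p = 0.00470), beside 2.58% of all genes called lower. *Pcsk1n*, which encodes an inhibitor of the *Pcsk1* convertase and was singled out after its values were seen, had 0.572 and 16.7 against 37.0 and 63.4 scaled FPKM in the basal turn, wild-type first, and 36.7 and 21.2 against 6.92 and 0.439 in the middle turn. Most of the list went the other way. Its median basal minus middle difference was −0.925 beside −0.121 over all genes, and 14 of the 16 values were below 0.

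Of 25 genes for the building and release of dense-core vesicles, 23 were tested. In the basal minus middle difference 6 were called higher and 1 lower, beside 6.33% and 2.58% of all genes, with a median of 0.32 over the list beside −0.12 over all genes. The largest values were 6.52 for *Cadps* (adjusted p = 0.00780), which primes vesicles for release, 6.18 for the calcium sensor *Syt7* (adjusted p = 0.00508), 4.47 for *Rab3a* (adjusted p = 0.00618), a small GTPase of secretory vesicles, and 4.18 for *Ptprn* (adjusted p = 0.00457), a membrane protein of the granules. *Cadps* had 18.4 and 18.5 against 3.94 and 0.332 scaled FPKM in the middle turn, wild-type first, and 0.188 and 8.33 against 34.9 and 44.2 in the basal turn, an order like that of *Chga* and *Chgb*. In the basal turn alone 1 was called higher, *Ptprn2* (1.58, adjusted p = 0.00540), and 1 lower, *Cyb561* (−1.74, adjusted p = 0.00441), a cytochrome of chromaffin granules. None was called in the middle turn. *Rab2a*, *Rab3a* and *Vti1b* were the most abundant, and *Rab2a* and *Vti1b* were not called in these comparisons.

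The third list holds 38 precursors of neuropeptides and peptide hormones, of which 14 passed the filter. *Npy*, the precursor of neuropeptide Y, was called higher in the homozygous middle turn, with 16.1 and 29.4 scaled FPKM against 2.36 and 2.42 in wild-type libraries (log2 fold change 2.75, adjusted p = 0.00799). Basal values were 1.04 and 1.84 against 2.82 and 1.496, wild-type first, and its basal minus middle difference was called (−2.39, adjusted p = 0.00603). In the apical turn, given as a description, *Npy* had 2.95 and 2.83 against 15.2 and 13.47. *Nucb2*, the nesfatin precursor gene, was called lower in the homozygous basal turn (−1.03, adjusted p = 0.00766) and in the basal minus middle difference (−1.61, adjusted p = 0.00358). No precursor was called higher in this difference. *Agt*, *Nucb2* and *Penk* had the highest means, and *Penk* ranged from 0.0969 to 40.2 with its 2 highest values in libraries of both genotypes.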

How the data were processed

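The authors cleaned reads with fastp 0.20.0, aligned them to mm10 with STAR 2.7.3a, kept uniquely mapped reads and deposited FPKM calculated with StringTie 2.0. The annotation version is not given in the sources used here. Each library was scaled by its median ratio to the geometric mean, taken over the 11552 genes that reached 1 FPKM in all 12 libraries. Genes with at least 1 FPKM in 2 libraries entered a limma 3.58.1 fit in R 4.3.3, on the log2 of scaled FPKM plus a pseudocount of 1, having 1 mean per group, eBayes with a trend, two-sided tests and Benjamini-Hochberg adjustment. No count test was used. Coordinates are those of the table and equal GENCODE M21 for all 9 genes. Plots were made in Python 3.11.15 (matplotlib 3.10.9).

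The 9 genes and all lists were chosen with earlier results of these data known, so no count over them is independent support. Genes named are the 9, *Gjb2*, the most abundant and the largest called members of each pathway list (the most abundant of each cell list), the 5 most like *Scg2*, and, outside this rule, *Pcsk1n*, *Pcsk2os1*, *Pcsk2os2* and the markers *Prph*, *Rbfox3*, *Gata3*, *Dbh* and *Hand2*, named for their role or after their values were seen. A further gene that the rule would name is not reported here. Alternatives were a pseudocount of 0.1, no filter, FPKM as deposited, quantile normalization, only the libraries compared, a replicate block, an adjusted p under 0.05 and each library left out.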

Additional observations from a re-analysis of the deposited data

Results flagged for a closer look

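The genotype difference in log2 units was not the same in the basal and middle turns, by the limma test of the difference itself, for *Chgb* (7.72), *Chga* (7.02), *Scg3* (5.88), *Pcsk2* (4.88) and *Scg5* (4.46). Genotype cannot be told apart here from where the pieces were cut or what tissue they held. Between the basal and apical turns, the homozygous libraries of *Chgb*, *Chga*, *Scg3* and *Scg5* all lay below the wild-type libraries in the apical turn and all above them in the basal turn. The basal minus apical values were 5.97 for *Chgb*, 5.42 for *Chga*, 4.42 for *Scg3* and 2.84 for *Scg5*. This difference was not tested, since the apical turn was used to choose the genes. No group has the 4 libraries needed to look for an outlying sample.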

How the results depend on the processing

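The basal minus middle difference was called for 5 of the 8 genes, and for 2 with a pseudocount of 0.1, 2 with a replicate block, 0 without the filter (9 genes in the fit, over 36005 genes) and 0 with only the 8 libraries compared. Leaving out 1 library lost some or all of these calls, except without the second wild-type basal library. The number of all genes called fell in the same fits. In the basal turn the number called was 0, and 1 with quantile normalization and 4 at an adjusted p under 0.05. When 1 library was left out, it rose only without the second wild-type basal library. In the middle turn it was 0, and 1 at an adjusted p under 0.05. Between the turns of homozygotes it was 0, and 1 with quantile normalization and 5 at an adjusted p under 0.05. It rose there without either wild-type basal library, and the share of all genes called higher rose too. Leaving out a library outside a comparison did not change its log2 values, only the spread shared over the groups. The cause of the other changes was not tested. Signs turned for *Cpe* between the turns of wild-type mice (0.033 with the FPKM as deposited, and −0.80 to 0.69 without 1 library each), for *Vgf* there (−0.367 with a pseudocount of 0.1, and −0.48 to 0.58), and in the basal turn for *Cpe* (−0.038 to 1.45), *Scg2* (−0.40 to 0.56) and *Vgf* (−0.43 to 2.41), none of which was called. Of all genes, the middle turn had 13 called higher and 16 lower, and 14 and 9 with the FPKM as deposited, which moved the median of all genes from 0.04 to 0.17 there. The basal count of 696 was 89 without the filter, 177 with the replicate block, 1954 at an adjusted p under 0.05 and 0 with only the libraries compared, and the difference count of 1445 was 296, 967, 3214 and 0. The middle count of 29 was 15, 12, 475 and 0, and 19 with a pseudocount of 0.1, and the homozygous turn count of 756 was 71, 300, 2014 and 0. Deviations of libraries with the same repeat number had correlations from −0.432 to 0.450 over pairs of groups, and from −0.415 to 0.267 between turns of 1 genotype. Whether turns with the same number came from the same mice is not given, and these values cannot settle it. With the basal numbers crossed, an alternative chosen after seeing the data, 5 genes were called in the difference. No depth is known, so no counting error can be given.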
